A study of Mus musculus with 130 samples.

Results

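Axon guidance ligands and receptors were followed through the cell cycle and across 3 embryonic days in whole mouse embryos. They comprise the Slits, netrins, semaphorins and ephrins and their receptors, the Robo proteins, Dcc and the Unc5 proteins, neuropilins, plexins and Eph receptors. They were taken by gene symbol from the table of 52550 genes: 67 symbols matched, and the 66 with a mean of at least 1 CPM (the gene's count scaled to library size) over all libraries were kept, 33 ligands and 33 receptors. Just outside that limit lay Ntn5 at 0.880 CPM, and just inside it lay Plxnb3 at 2.37 CPM. All embryos were FVB/NJ wild types that carried FUCCI, a pair of fluorescent proteins that are degraded at different points of the cell cycle. Minced embryos were sorted by that fluorescence into 4 gates, which the labels name as G0, G1, G1-S and S-G2-M phase cells, and unsorted cells were kept as a separate fraction. There were 5 preparations: WT1 and WT2 at E10.5, WT3 at E11.5, and 5 and 8 at E13.5. Each gave 1 library per fraction, 25 in all, so every gate had 5 libraries. It is not stated if embryos were pooled within a preparation.

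Guidance molecules steer growing axons and migrating cells. Slits bind Robo receptors and usually repel, netrins attract through Dcc or repel through Unc5 proteins, and semaphorins act through plexins, the secreted class 3 members with neuropilins as co-receptors. Ephrins are held on the membrane and bind Eph receptor tyrosine kinases on neighbouring cells, with signals passing in both directions. The same molecules act outside the nervous system, in blood vessels, limb mesenchyme, somites and epithelia. Neurons leave the cell cycle for good as they differentiate, while their progenitors and most mesenchyme of the embryo keep dividing.

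Library totals ran from 14692256 to 58492064 counts with a median of 22852555, and of the 66 members at most 1 fell under 10 counts in any library. Genes of G2 and mitosis followed the gate labels. Summed over 10 genes of G2 and mitosis, the level was 4814 to 6155 CPM in S-G2-M and 61.4 to 160.4 CPM in G0, and all 10 genes were higher in S-G2-M. The 5 and 8 preparations differed from the others in more than day: mitochondrial genes took 1.66 to 3.42% of their counts, against 0.372 to 0.701% in the WT-titled ones. Day, preparation series and that share cannot be told apart. The tissue label is whole embryo, so a gate holds many cell types, and fewer cells of a type and less RNA per cell cannot be told apart. P-values rest on the spread between libraries that each fit leaves, with the estimate of spread shared across genes. Gate comparisons took libraries of the same preparation as independent. Day comparisons rest on few libraries, so their very small p-values lean on that sharing.

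Levels differed widely between members. Per kilobase of exon, Plxnb2, a plexin for class 4 semaphorins, was the most abundant at a mean of 51.0 CPM per kb over the 25 libraries. Ephb4, an Eph receptor of veins and other tissues, followed at 36.5 CPM per kb and Epha4, a receptor of motor axons and hindbrain segments, at 33.6 CPM per kb. The lowest was Plxnb3 at 0.364 CPM per kb. The ratio of a member's highest to its lowest gate mean was 1.03 to 110, with a median of 2.21. The highest mean was in G0 for 38 members, in G1 for 12, in G1-S for 10 and in S-G2-M for 6. The lowest mean was in S-G2-M for 34 members and in G0 for 17.

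**Figure D1:**
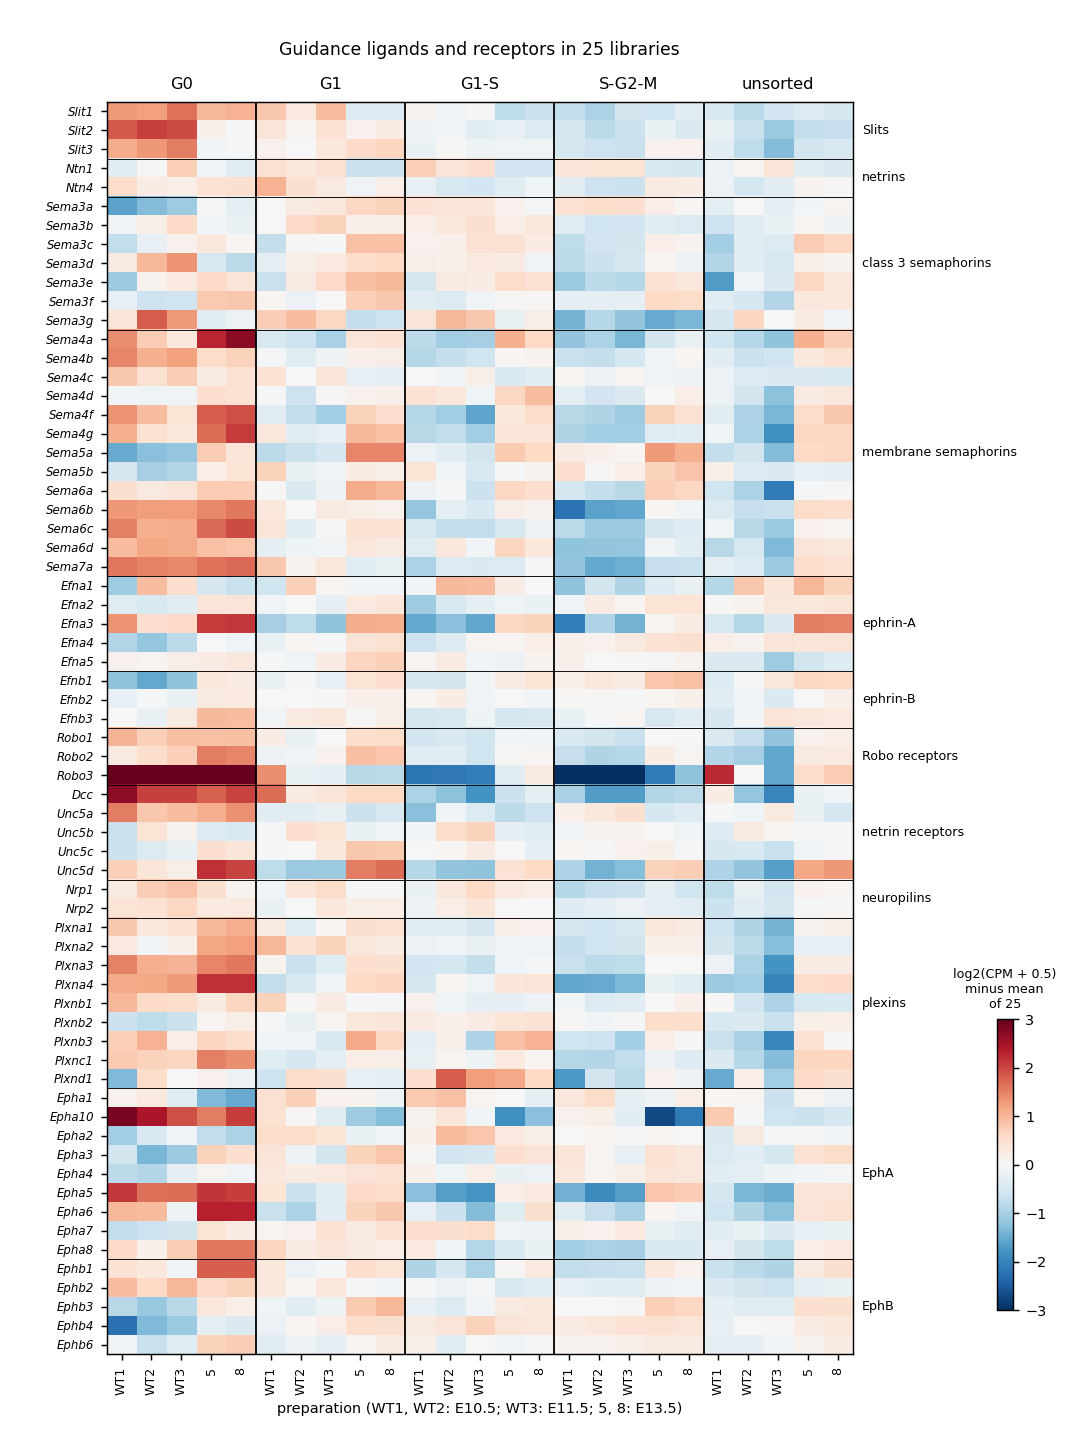
Level of the 66 members (rows, by family) in the 25 libraries (columns, by fraction and preparation), as log2(CPM + 0.5) minus the member's mean over the 25 libraries, with colours capped at 3 and -3. Robo3, Dcc and Sema7a are red in G0 and blue in S-G2-M in all 5 preparations, while in the G0 libraries of WT1, WT2 and WT3 Slit2 and Slit3 are red and Sema3a, Efnb1 and Ephb4 blue.

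Among the gate comparisons made, S-G2-M against G0 had the most members called, and also the most genes called over all. G1-S against G0 and S-G2-M against G1 were not tested. Of the 66 members 40 were lower in S-G2-M and 12 were higher, while 14 were not called. Over all 23506 genes tested, 26.6% were called lower and 27.5% higher. The median log2 change of the members was -0.81, against -0.01 over all genes. Lower in S-G2-M were 21 of 33 receptors and 19 of 33 ligands. In all 5 preparations 40 members were lower in S-G2-M and 12 were higher, and for 34 members no S-G2-M library overlapped a G0 library. The shares of all genes with such agreement or no overlap were not computed, so these counts only describe the members. Within WT1, WT2 and WT3 alone 14 members were higher and 39 lower, with 11786 of all 24662 genes called. Within 5 and 8 alone 13 were higher and 43 lower, with 11681 of all 20886 genes called.

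**Figure D2:**
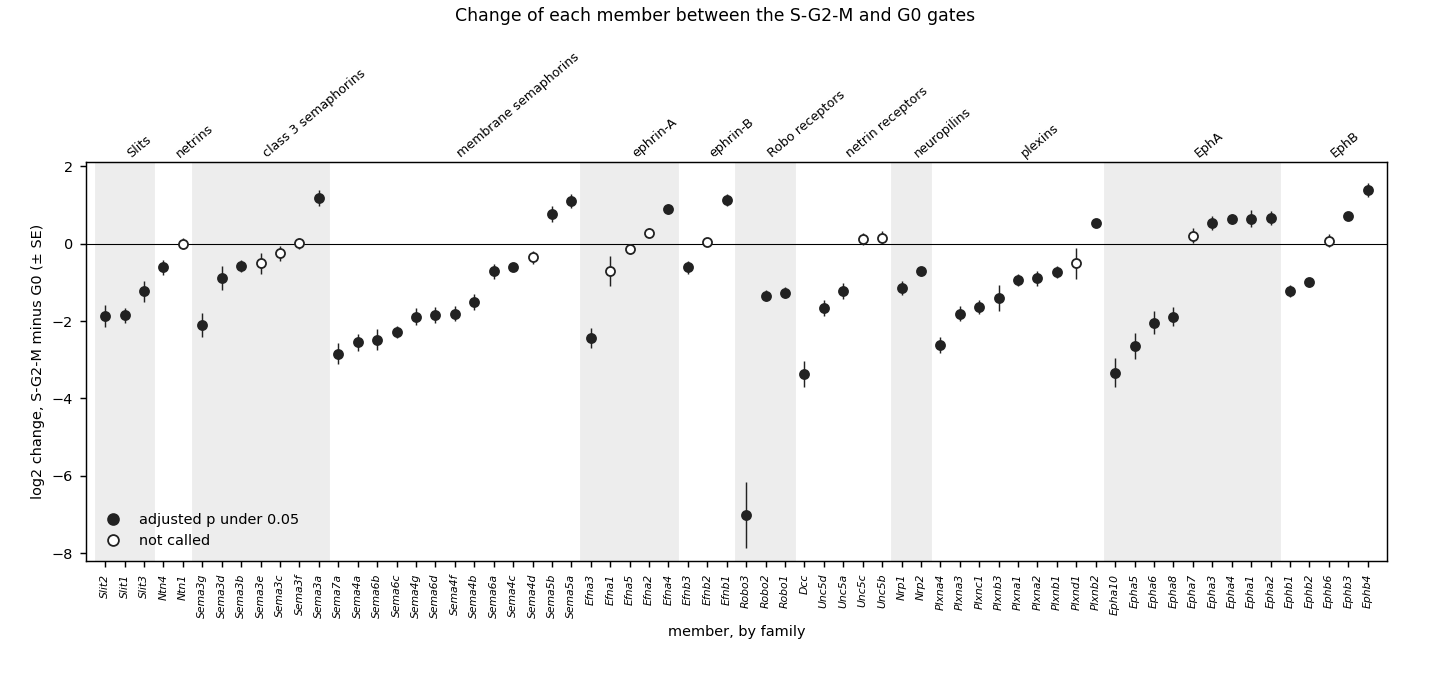
The log2 change of each member, S-G2-M minus G0, with its standard error, by family; filled points have an adjusted p under 0.05. Robo3 lies lowest at -7.02 and Ephb4 highest at 1.38, and all Slits, Robo receptors and neuropilins lie below 0.

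Over all preparations 3 of 3 Slits and 3 of 3 Robo receptors were called lower in S-G2-M. Robo3 lets commissural axons cross the midline by damping the response to Slit. In G0 it had 1279.6, 703, 477, 291 and 514 CPM in WT1, WT2, WT3, 5 and 8. In G1 it had 95.3, 30.6, 29.1, 19.9 and 20.5 CPM, and in G1-S it had 7.56, 7.72, 8.15, 28.4 and 43.2 CPM in the same order. In S-G2-M it had 1.82, 2.01, 2.43, 8.04 and 15.2 CPM. Every G0 library stood above every library of the other gates, and in S-G2-M the 2 libraries of E13.5 stood above the others. The log2 change was -7.02 (SE 0.85, adjusted p 4.29e-07), and 65 to 212 reads per S-G2-M library carried it. Robo3 lies on chromosome 9 at 37415669 to 37433246 on the minus strand (GRCm38, GENCODE M21). Its RefSeq promoter, 250 bases before to 50 after the start at chr9:37433126-37433425 on the minus strand of GRCm38.p6, is shown because no member changed more between gates.
Robo3: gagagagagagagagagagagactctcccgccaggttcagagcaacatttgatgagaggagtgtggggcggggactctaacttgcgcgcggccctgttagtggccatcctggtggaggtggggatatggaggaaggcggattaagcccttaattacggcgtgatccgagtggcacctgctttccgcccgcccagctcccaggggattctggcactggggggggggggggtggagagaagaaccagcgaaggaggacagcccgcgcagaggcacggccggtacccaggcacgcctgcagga

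Slit2, a secreted repellent of the midline and motor columns, had 173, 141, 157, 213 and 179 CPM in S-G2-M, against 879, 1007, 949, 269 and 239 CPM in G0. The S-G2-M libraries lay within a narrow band, while the G0 libraries split into 3 high ones of E10.5 and E11.5 and 2 low ones of E13.5. The log2 change was -1.87 (SE 0.28, adjusted p 5.66e-06). It was -2.58 within WT1, WT2 and WT3 and -0.43 within 5 and 8. The gene lies on chromosome 5 at 47983138 to 48307733. Slit1 averaged 45.9 ± 7.41 CPM in S-G2-M and 169 ± 32.1 CPM in G0 (SD, n = 5 each). Slit3 averaged 73.2 ± 21.1 CPM in S-G2-M and 167 ± 78.5 CPM in G0, but was lower in only 3 of 5 preparations. Its log2 change was -1.94 within WT1, WT2 and WT3 and 0.12 within 5 and 8, where it was not called (adjusted p 0.152). The receptors Robo1 and Robo2 carry the repulsive response. Robo1 averaged 226 ± 48.6 CPM in S-G2-M, against 523 ± 42.1 CPM in G0, and Robo2 115 ± 44.4 CPM in S-G2-M, against 290.3 ± 115 CPM in G0.

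Netrin receptors did not all move together. Dcc, the attractive netrin receptor, had 58.4, 35.7, 35.9, 62.7 and 65.5 CPM in S-G2-M, against 739, 478, 481, 396 and 469 CPM in G0. All S-G2-M libraries lay far below all G0 libraries. The log2 change was -3.37 (SE 0.33, adjusted p 1.05e-08), the second largest of the members. Of the 5 netrin receptors, Dcc, Unc5a and Unc5d fell, while Unc5b and Unc5c, repulsive receptors that are also found in vessels and mesenchyme, were not called. Unc5d averaged 6.59 ± 5.11 CPM in S-G2-M and 19.1 ± 12.6 CPM in G0. The ligand Ntn1, made by the floor plate and other epithelia, had 196, 200.1, 199.8, 109 and 105 CPM in S-G2-M, against 119, 156, 249, 139 and 122 CPM in G0. Its ranges overlapped and the test gave an adjusted p of 0.999, with means of 162 ± 50.4 CPM in S-G2-M and 157 ± 53.4 CPM in G0.

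**Figure D3:**
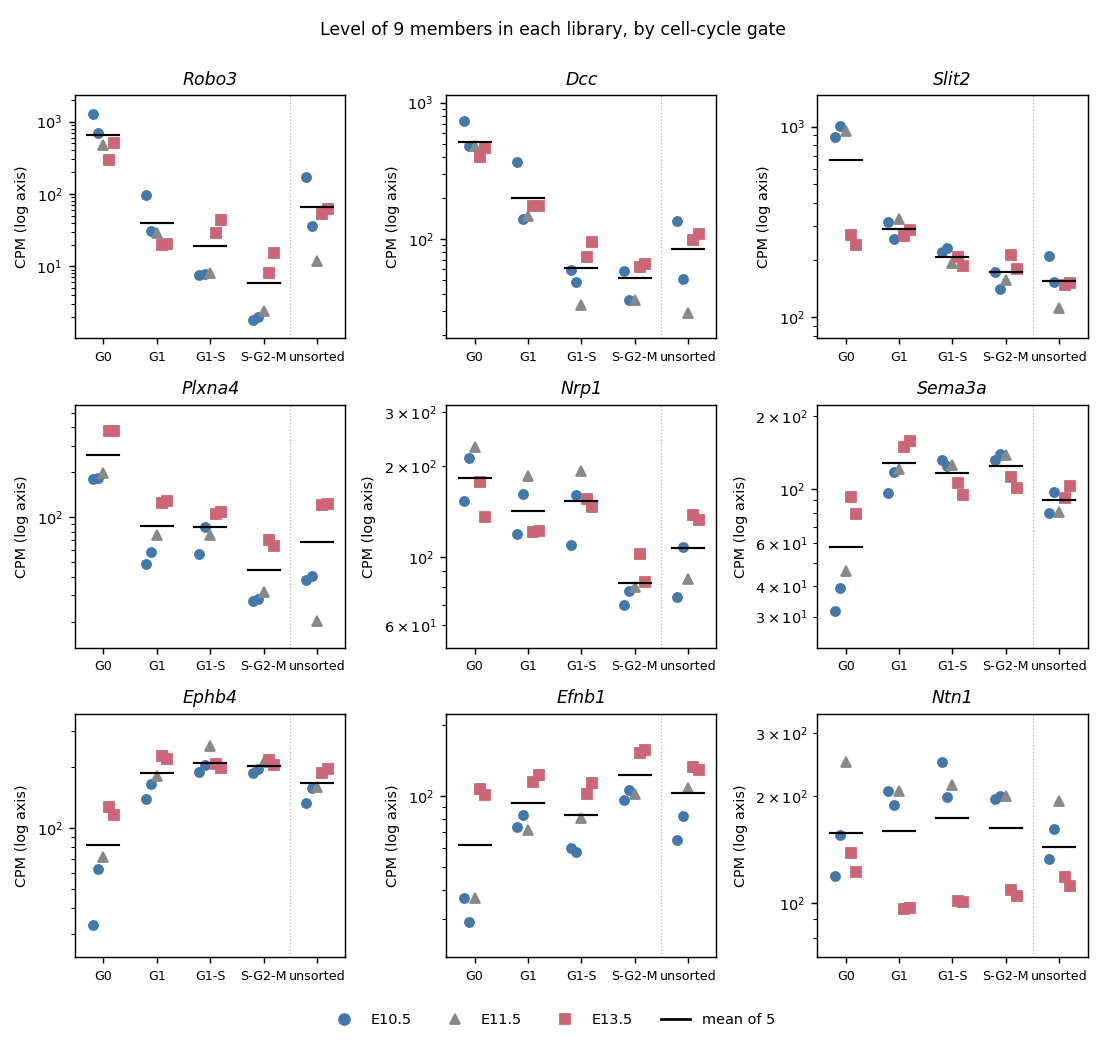
Level in CPM (log axis) of 9 members in each library by fraction, with the mean of 5 libraries as a bar and the day as symbol. Robo3 and Dcc step down from G0 to S-G2-M, Sema3a, Ephb4 and Efnb1 lie lowest in G0, and Ntn1 overlaps between S-G2-M and G0.

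Membrane semaphorins, classes 4 to 7, had 10 of 13 members lower in S-G2-M and 2 higher. Their median log2 change was -1.81. Sema7a, a lipid-anchored semaphorin that promotes axon growth through integrins, had 3.61, 2.69, 2.86, 5.31 and 5.32 CPM in S-G2-M, against 27.3, 25.7, 24.9, 28.5 and 29.7 CPM in G0. Its G0 level hardly varied between preparations, and the log2 change was -2.84 (SE 0.27, adjusted p 5.72e-09). Sema6c averaged 35.6 ± 8.29 CPM in S-G2-M and 172 ± 45.9 CPM in G0, and Sema4a averaged 2.85 ± 1.11 CPM in S-G2-M and 19.1 ± 12.9 CPM in G0. The 2 that rose were the class 5 members Sema5a and Sema5b, which carry thrombospondin repeats. Sema5a averaged 212 ± 86.0 CPM in S-G2-M and 114 ± 83.5 CPM in G0, a log2 change of 1.11 (SE 0.18, adjusted p 1.29e-05) that was higher in 5 of 5 preparations although the ranges overlapped.

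Among the 7 secreted class 3 semaphorins 3 fell and 1 rose. The one that rose was Sema3a, which collapses growth cones through neuropilin-1 and is made by mesenchyme and other tissue around nerves. It had 132, 140.02, 138, 112 and 101 CPM in S-G2-M, against 31.5, 39.2, 46.4, 92.6 and 79.1 CPM in G0. No library overlapped, and the gap was narrower at E13.5. The log2 change was 1.17 (SE 0.20, adjusted p 3.46e-05). Sema3a lies on chromosome 5 at 13125414 to 13602565. Its receptor parts moved the other way. Nrp1, its binding co-receptor, had 69.7, 77.8, 80.3, 103 and 83.2 CPM in S-G2-M, against 153, 212, 229.7, 177 and 135 CPM in G0, a log2 change of -1.15 (SE 0.18, adjusted p 6.46e-06). Plxna4, a signalling partner of neuropilins in sensory axons, had 27.4, 28.3, 31.7, 70.3 and 63.8 CPM in S-G2-M, against 179.5, 185, 198, 376 and 377 CPM in G0. Both gates held more Plxna4 at E13.5, and the log2 change was -2.62 (SE 0.21, adjusted p 2.85e-10). In all, 7 of 9 plexins fell and 1 rose, and both neuropilins fell. The plexin that rose was Plxnb2, at 443 ± 97.5 CPM in S-G2-M and 309 ± 98.7 CPM in G0.

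Eph receptors and ephrins moved in both directions. Of 9 EphA receptors 4 fell and 4 rose, of 5 EphB receptors 2 fell and 2 rose, and of the 8 ephrins 2 fell and 2 rose. The steepest fall was that of Epha10, an Eph receptor whose kinase domain is thought to be inactive. It had 4.28, 4.41, 2.97, 0.161 and 0.503 CPM in S-G2-M, against 30.98, 23.2, 15.9, 12.1 and 17.7 CPM in G0, and only 3 and 7 reads in the S-G2-M libraries of 5 and 8. The log2 change was -3.33 (SE 0.38, adjusted p 7.66e-08). Epha5, a receptor of retinal and cortical axons, had 13.4, 9.55, 11.5, 67.1 and 63.7 CPM in S-G2-M, against 163, 117, 120, 165 and 158 CPM in G0, a log2 change of -2.64 (SE 0.33, adjusted p 3.69e-07). Its G0 level was similar at all days while its S-G2-M level was not. Ephb2, a receptor of commissural and retinal axons, averaged 172 ± 14.3 CPM in S-G2-M and 342 ± 45.9 CPM in G0, a log2 change of -0.996 (SE 0.12, adjusted p 1.22e-07).

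Ephb4, the receptor for ephrin-B2 on veins, rose most of the members. It had 186, 196, 212, 216 and 204 CPM in S-G2-M, against 33.1, 62.6, 71.5, 127 and 116 CPM in G0, with no overlap. The log2 change was 1.38 (SE 0.18, adjusted p 5.41e-07). Its partner Efnb2 averaged 154 ± 7.14 CPM in S-G2-M and 152 ± 27.3 CPM in G0, with a log2 difference of 0.03 (SE 0.09, adjusted p 0.796). Efnb1, an ephrin of mesenchyme and neural crest, had 95.7, 106, 102, 152 and 157 CPM in S-G2-M, against 36.7, 29.3, 36.9, 106 and 101 CPM in G0, higher in 5 of 5 preparations. Its log2 change was 1.12 (SE 0.16, adjusted p 1.85e-06). Efna4 averaged 22.9 ± 2.62 CPM in S-G2-M and 12.8 ± 4.77 CPM in G0, a log2 change of 0.89 (SE 0.13, adjusted p 2.88e-06). Epha3, a receptor of motor axons and mesenchyme, was called higher with a log2 change of 0.53 (SE 0.19, adjusted p 0.0211). It was 1.05 within WT1, WT2 and WT3 and -0.25 within 5 and 8, each past the threshold, and leaving out WT1, WT2 or WT3 ended the pooled call. Epha7, Ephb6, Sema3d and Unc5c also passed in opposite directions within the 2 sets of preparations. Of the exon bases of Efna3, Plxna1, Efna4, Sema4c and Epha1, 14.1, 10.7, 10.5, 7.3 and 6.0% lie under a gene of the other strand, and reads of the partner cannot be told apart unless counting used strand, which is not given in the sources used here.

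Promoters of 56 members (72 starts, 250 bases before to 50 after) were found in the RefSeq table of GRCm38.p6. Those of Epha10 and Sema7a are shown as members with large falls in S-G2-M, and that of Ephb4 as the member with the largest rise; capitals mark the E-box CAGCTG, the letters bound by many neurogenic basic helix-loop-helix factors. They lie at chr4:124881535-124881834, chr9:57939862-57940161 and chr5:137349859-137350158, all on the plus strand.
Epha10: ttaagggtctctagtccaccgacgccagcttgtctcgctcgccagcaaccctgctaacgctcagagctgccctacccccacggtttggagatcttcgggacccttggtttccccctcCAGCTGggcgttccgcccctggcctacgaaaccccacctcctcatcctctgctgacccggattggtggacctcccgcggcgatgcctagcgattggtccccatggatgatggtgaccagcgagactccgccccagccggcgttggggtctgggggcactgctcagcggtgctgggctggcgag
Sema7a: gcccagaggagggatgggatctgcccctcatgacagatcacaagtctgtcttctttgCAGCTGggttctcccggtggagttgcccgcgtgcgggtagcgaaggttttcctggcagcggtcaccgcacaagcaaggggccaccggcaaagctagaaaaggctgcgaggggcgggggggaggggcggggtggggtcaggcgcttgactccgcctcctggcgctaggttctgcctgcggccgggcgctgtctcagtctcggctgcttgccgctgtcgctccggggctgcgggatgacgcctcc
Ephb4: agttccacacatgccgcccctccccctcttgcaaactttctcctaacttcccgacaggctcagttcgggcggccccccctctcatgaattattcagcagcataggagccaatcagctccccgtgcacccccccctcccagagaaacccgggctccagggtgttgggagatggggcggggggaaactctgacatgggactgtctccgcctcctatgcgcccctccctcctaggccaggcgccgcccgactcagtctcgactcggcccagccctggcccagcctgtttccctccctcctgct
The E-box CAGCTG stood in 10 of 72 member promoters (13.9%), against 16.3% of all 32851 promoters of the same length, searched on both strands. It stood in 8 of 43 promoters of members lower in S-G2-M and in 1 of 13 of members higher there. The E-box CAGATG stood in 5 of 72 member promoters (6.9%), against 17.2% of all. The E2F letters TTTCCCGC, TTTCGCGC, TTTGCCGC and TTTGGCGC stood in 0 of 72 member promoters, against 2.3% of all. None of these shares was tested, and a match is only a run of letters.

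Markers of some cell types moved between S-G2-M and G0 too. Of 12 neuron markers, among them Tubb3, Dcx and Stmn2, all 12 were lower in S-G2-M, with a summed level of 226 to 575 CPM in S-G2-M and 5020 to 9256 CPM in G0. None of them was at 0 in any gate mean. Of 12 mesenchyme markers, among them Prrx1, Twist1 and Pdgfra, 8 were higher and 0 lower in S-G2-M, with 2928 to 5379 CPM in S-G2-M and 577 to 6403 CPM in G0. Col1a1 went the other way by its gate means, at 465 CPM in S-G2-M and 684 CPM in G0. In preparations 5 and 8 the mesenchyme sum was 5379 and 4960 CPM in S-G2-M, against 6403 and 5511 CPM in G0. Of 12 neural progenitor markers 9 were higher and 0 lower. The other lists were mixed. Of 8 heart markers 5 were lower and 0 higher, and of 8 cartilage markers 5 were higher and 0 lower. For skeletal muscle 3 of 9 were higher and 3 lower, and for neural crest and glia 5 of 8 were higher and 1 lower. For endothelium and erythroid cells 0 of 8 were called either way. The part of these markers in the members' changes was not tested.

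**Figure D4:**
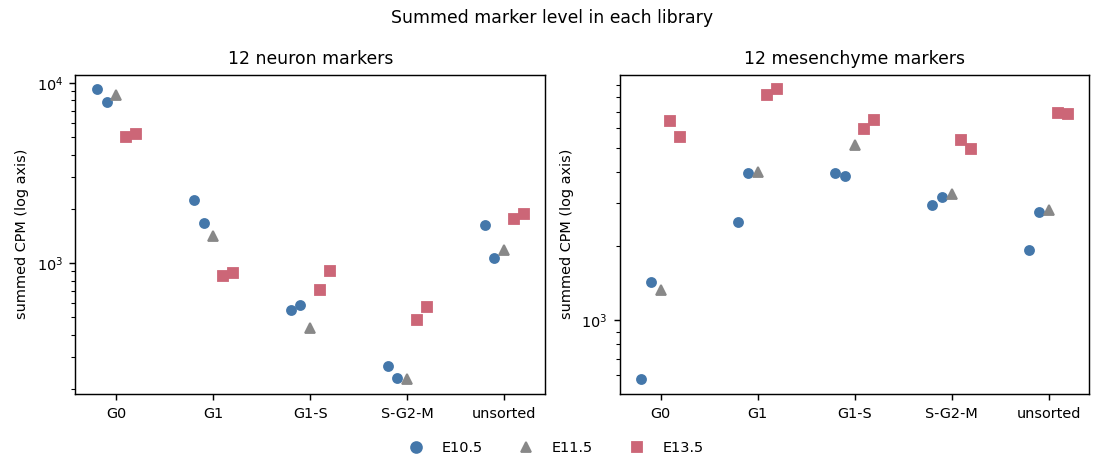
Summed CPM (log axis) of 12 neuron markers and of 12 mesenchyme markers in each library by fraction and day. Neuron markers lie highest in G0 at every day, and mesenchyme markers in G0 lie at 6403 and 5511 CPM in preparations 5 and 8 and at 577 to 1429 CPM in WT1, WT2 and WT3.

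G1 was compared with the same G0 libraries as S-G2-M above. G1 cells differed from G0 cells in 42 members, with 30 lower and 12 higher, against 18.1% of all genes lower and 18.2% higher. The median log2 change was -0.38 (0.01 over all genes). Robo3 fell by 4.10 on the log2 scale (SE 0.72, adjusted p 0.000118), with means of 39.1 CPM in G1 and 653 CPM in G0. Epha10 fell by 2.95 (SE 0.37, adjusted p 1.28e-06), Sema4a by 1.93 (SE 0.22, adjusted p 2.80e-07), Epha5 by 1.91 (SE 0.31, adjusted p 4.43e-05) and Unc5a by 1.75 (SE 0.21, adjusted p 8.81e-07). Each of these was lower in G1 in 5 of 5 preparations. Plxna4 fell by 1.65 (SE 0.20, adjusted p 9.87e-07), Dcc by 1.42 (SE 0.31, adjusted p 0.000803) and Ephb2 by 0.68 (SE 0.12, adjusted p 5.90e-05).

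Slit2 fell by 1.17 (SE 0.28, adjusted p 0.00173), but the fall was in 4 of 5 preparations and the log2 change within 5 and 8 was 0.07. Sema3d and Slit3 were lower in G1 within WT1, WT2 and WT3 and higher within 5 and 8, each past the threshold, while Plxna2 did the reverse. Ephb4 rose by 1.195 (SE 0.18, adjusted p 1.11e-05) and Sema3a by 1.14 (SE 0.20, adjusted p 9.78e-05), both with no overlap between the gates. Epha2, a receptor of epithelia, rose by 0.87 (SE 0.17, adjusted p 0.000366), Epha1 by 0.74 (SE 0.22, adjusted p 0.0103) and Sema5a by 0.73 (SE 0.18, adjusted p 0.00233), and their ranges overlapped. Epha3 was called at 0.51 (SE 0.19, adjusted p 0.0359) and higher in 4 of 5 preparations. Leaving out WT1, WT2 or WT3 ended that call, and the call of Epha1 was lost without 5 (adjusted p 0.0627). The values were -0.40 for Nrp1 (SE 0.17, adjusted p 0.0763), -0.08 for Ntn1 (SE 0.15, adjusted p 0.728) and 0.01 for Efnb2 (SE 0.09, adjusted p 0.934). All 12 neuron markers were lower in G1 than in G0 and 11 of 12 mesenchyme markers were higher. Other lists moved as well. With 0 lower, 10 of 12 neural progenitor markers and 7 of 8 epithelium markers were higher. So were 6 of 8 each for cartilage, erythroid cells and macrophages, and 5 of 8 for neural crest and glia. Of 8 heart markers 5 were lower and 0 higher. The part of these markers in the members' changes was not tested.

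Between G1 and G1-S 11 members (16.7%) were lower and 1 (1.5%) higher in G1-S, against 7.18% of all genes lower and 11.7% higher. Dcc dropped again. It had 59.2, 48.9, 32.8, 73.4 and 95.6 CPM in G1-S, against 369.5, 139.8, 148, 175 and 175 CPM in G1, with no overlap, and the log2 change was -1.71 (SE 0.31, adjusted p 0.000439). Epha5 fell by 0.97 (SE 0.31, adjusted p 0.0333) and Ntn4, a basement membrane netrin, by 0.80 (SE 0.20, adjusted p 0.00570). The call of Epha5 was lost without WT1, WT2 or WT3 (adjusted p 0.0581 to 0.120). Plxna2 fell by 0.72 (SE 0.20, adjusted p 0.0139) and averaged 242 ± 8.67 CPM in G1-S and 398 ± 85.4 CPM in G1, a call lost without WT1 (adjusted p 0.0765). Sema6c fell by 0.70 (SE 0.15, adjusted p 0.00211). The member that rose was Sema4d, a semaphorin of lymphoid and endothelial signalling, at 0.53 (SE 0.17, adjusted p 0.0321), in 4 of 5 preparations. Its call was lost with RLE size factors (adjusted p 0.0513), with no filter on low counts (0.0590) and without WT1, WT2, 5 or 8 (0.0681 to 0.207). Robo3 changed by -1.12 (SE 0.70, adjusted p 0.293), lower in the 3 earlier preparations and higher in 5 and 8. Slit2 at -0.46 (SE 0.27, adjusted p 0.258) and Ephb2 at -0.30 (SE 0.12, adjusted p 0.0689) were not called. Nor were Epha3, Sema3a, Efnb2, Plxna4, Nrp1 and Ntn1, whose values lay between -0.23 and 0.15 (adjusted p 0.428 to 0.9997). Markers of several cell types moved between the same gates. In G1-S against G1 7 of 12 neuron markers were lower, with summed levels of 438 to 903 CPM in G1-S and 853 to 2251 CPM in G1. Higher in G1-S were 8 of 8 hepatocyte markers, with 19.9 to 2081 CPM in G1-S and 7.85 to 25.7 CPM in G1, and 7 of 8 heart markers, with 300.2 to 957 CPM in G1-S and 22.9 to 83.7 CPM in G1. Macrophage markers and those of neural crest and glia were higher for 6 of 8 each. None of the markers had a gate mean of 0, and their part in the members' changes was not tested. The total of 12 calls was 7 without WT1, 19 to 26 under 3 other settings of filter, tool or genes left out, and 42 within 5 and 8 alone. Over all genes 4444 of 23506 were called in the main fit, 3399 of 23124 without WT1 and 8476 of 20886 within 5 and 8.

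Against G1-S, 14 members were lower in S-G2-M and 4 higher, beside 10.1% of all genes lower and 7.28% higher. The 3 steepest falls past the test were those of Sema3g, Plxnd1 and Efna1. Sema3g, a class 3 semaphorin of arteries, had 3.92, 5.98, 4.70, 3.65 and 4.03 CPM in S-G2-M, against 14.8, 23.1, 20.3, 9.63 and 12.8 CPM in G1-S, a log2 change of -1.83 (SE 0.31, adjusted p 0.000316). Plxnd1, the endothelial receptor for Sema3e, had 39.6, 89.4, 75.1, 143 and 117 CPM in S-G2-M, against 186, 466, 313, 291 and 198 CPM in G1-S, a log2 change of -1.71 (SE 0.41, adjusted p 0.00598). For both genes every S-G2-M library lay below every G1-S library. Efna1 fell by 1.16 (SE 0.39, adjusted p 0.0421), and this call was lost without WT3, 5 or 8. Nrp1 fell by 0.89 (SE 0.18, adjusted p 0.00136), with 82.7 ± 12.2 CPM in S-G2-M and 153 ± 29.5 CPM in G1-S.

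Plxna4 fell by 1.09 in S-G2-M (SE 0.20, adjusted p 0.000767) and Sema6d by 0.99 (SE 0.20, adjusted p 0.00162). The members that rose were Unc5a at 0.70 (SE 0.21, adjusted p 0.0261), Efna2 at 0.63 (SE 0.12, adjusted p 0.00102), Efnb1 at 0.58 (SE 0.15, adjusted p 0.0115) and Efna4 at 0.42 (SE 0.13, adjusted p 0.0244). Robo3 at -1.80 (SE 0.71, adjusted p 0.0863) was not called, nor were Slit2, Dcc, Ntn1, Ephb2, Efnb2, Sema3a and Epha3, whose values lay between -0.24 and 0.25 (adjusted p 0.417 to 0.964). Each of the 4 members that rose was higher in 5 of 5 preparations, though leaving out single preparations ended the calls of Unc5a, Efnb1 and Efna4. Of 8 endothelium markers, among them Pecam1, Cdh5 and Kdr, all 8 were lower in S-G2-M, with 66.1 to 221 CPM in S-G2-M and 295 to 829 CPM in G1-S, and none was at 0. Markers of other cell types fell likewise: 8 of 8 each for heart and hepatocytes, 7 of 8 for macrophages, 6 of 8 for neural crest and glia, and 5 of 8 for erythroid cells. Of 12 neural progenitor markers 6 were higher and 0 lower. Their part in the members' changes was not tested. The total of 18 calls was 10 without WT2 and 31 within 5 and 8, of which 15 were higher and 16 lower. Over all genes 4087 of 23506 were called in the main fit, 2653 of 23301 without WT2 and 4914 of 20886 within 5 and 8.

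Unsorted cells held more guidance transcripts at E13.5 than at E10.5. Of the 66 members 37 were higher and 1 was lower, against 23.2% of all genes higher and 23.7% lower, and the median log2 change was 0.67 (-0.06 over all genes). Each day had 2 libraries. Unc5d, a netrin receptor of cortical neurons, had 16.7 and 18.4 CPM at E13.5, against 3.55 and 2.90 CPM at E10.5, a log2 change of 2.496 (SE 0.22, adjusted p 0.000337). Efna3 had 13.9 and 13.5 CPM at E13.5, against 3.03 and 2.25 CPM at E10.5, a log2 change of 2.43 (SE 0.25, adjusted p 0.000526). Plxna4 had 121 and 122 CPM at E13.5, against 38.2 and 40.1 CPM at E10.5, a log2 change of 1.68 (SE 0.12, adjusted p 0.000178). Sema4a rose by 1.84 (SE 0.26, adjusted p 0.00161) and Epha6 by 1.60 (SE 0.37, adjusted p 0.0114). The call of Epha6 was lost without 5 or 8 (adjusted p 0.0642 and 0.0689). In these fractions 10 of 13 membrane semaphorins and 7 of 9 plexins rose. The member that fell was Epha10, with 2.26 and 2.53 CPM at E13.5, against 6.97 and 3.78 CPM at E10.5, at -1.11 (SE 0.36, adjusted p 0.0405), a call lost without 5 or 8 (adjusted p 0.166 and 0.137). Markers of other cell types rose in the same comparison: 8 of 12 for mesenchyme with 1 lower, 7 of 8 for cartilage, 8 of 8 for hepatocytes, and 6 of 8 each for erythroid cells and macrophages. Summed mesenchyme markers had 6879 and 6812 CPM at E13.5, against 1919 and 2748 CPM at E10.5. Summed hepatocyte markers averaged 1249 CPM at E13.5 and 114 CPM at E10.5. Of the 12 neuron markers 3 were higher and 2 lower. The part of these markers was not tested.

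The 3 Slits were not called in unsorted cells, with Slit2 at -0.23 (SE 0.18, adjusted p 0.323), nor were Efnb2 at 0.33 (SE 0.14, adjusted p 0.0981), Ntn1 at -0.31 (SE 0.15, adjusted p 0.122), Ephb2 at 0.29 (SE 0.14, adjusted p 0.121) and Sema3a at 0.19 (SE 0.15, adjusted p 0.320). Epha3 rose by 0.92 (SE 0.13, adjusted p 0.00186) and Nrp1 by 0.62 (SE 0.19, adjusted p 0.0312), and the call of Nrp1 was lost without 5 or 8 (adjusted p 0.217 and 0.112). Robo3 and Dcc differed between the E10.5 preparations. Robo3 had 53.1 and 61.6 CPM at E13.5, against 172 and 35.7 CPM at E10.5, and its log2 change of -0.81 (SE 0.76, adjusted p 0.427) became 0.73 without WT1. Dcc had 97.9 and 109 CPM at E13.5, against 135 and 51.2 CPM at E10.5, and its 0.21 (SE 0.41, adjusted p 0.698) became -0.41 without WT2. The count of 38 changed without WT1, WT2, 5 or 8, and so did the count over all genes. Each of those fits leaves E10.5 or E13.5 with a single library.

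The gates were then compared by day. In S-G2-M 41 members were higher at E13.5 and 7 lower, against 22.6% of all genes higher and 29.5% lower. In G0 34 were higher and 6 lower, against 19.9% of all genes higher and 24.0% lower. Higher in both gates were 23 members, of the 41 in S-G2-M and the 34 in G0. The share of all genes higher in both was not computed, so this overlap is not read as a shared rise. Among the 23 were Robo2, Plxna4, Unc5d, Efnb1, Ephb1, Sema5a and Sema6c. Unc5d rose by 2.03 in S-G2-M (SE 0.24, adjusted p 3.32e-13) and by 1.59 in G0 (SE 0.17, adjusted p 6.79e-05). Plxna4 rose by 1.26 in S-G2-M (SE 0.12, adjusted p 1.04e-18) and by 1.04 in G0 (SE 0.11, adjusted p 6.52e-05). Sema5a rose by 1.97 in G0 (SE 0.15, adjusted p 9.45e-06), to 229 and 177 CPM at E13.5, against 47.1 and 56.1 CPM at E10.5. Efnb1 rose by 1.65 in G0 (SE 0.14, adjusted p 1.66e-05) and Epha6 by 1.46 (SE 0.22, adjusted p 0.000471).

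Beside Unc5d, the largest rises in S-G2-M were those of Robo3 at 2.58 (SE 0.27, adjusted p 1.82e-15), Epha5 at 2.504 (SE 0.14, adjusted p 4.20e-34), Sema6b at 1.96 (SE 0.22, adjusted p 7.75e-15) and Efna3 at 1.80 (SE 0.34, adjusted p 6.54e-06). Robo3 had 8.04 and 15.2 CPM at E13.5, against 1.82 and 2.01 CPM at E10.5, still far below its level in G0. The largest fall in S-G2-M was that of Epha10 at -3.80 (SE 0.43, adjusted p 2.95e-14), on 3 and 7 reads at E13.5. Ntn1 fell by 0.90 (SE 0.11, adjusted p 3.41e-13) and Unc5a by 0.79 (SE 0.25, adjusted p 0.00543), and the call of Unc5a was lost without 5 (adjusted p 0.111). Epha1 fell by 0.45 (SE 0.19, adjusted p 0.0404), Epha7 by 0.43 (SE 0.11, adjusted p 0.000299) and Sema3a by 0.36 (SE 0.11, adjusted p 0.00319). Nrp1 rose by 0.33 (SE 0.11, adjusted p 0.00869) and Slit2 by 0.31 (SE 0.11, adjusted p 0.0110). The calls of Epha1, Nrp1 and Slit2 were lost without 5, those of Epha1, Epha7 and Sema3a without 8, and those of Epha1 and Slit2 also without WT2 and with DESeq2. Dcc, Ephb2, Epha3 and Efnb2 were not called, at 0.05 to 0.44 (adjusted p 0.176 to 0.716). In the same gate the summed neuron markers averaged 528 CPM at E13.5 and 250 CPM at E10.5, and 10 of the 12 were higher. Other lists rose too. For cartilage 7 of 8 markers were higher and 0 lower. With 1 lower in each list, 8 of 12 were higher for neural progenitors, 7 of 9 for skeletal muscle and 6 of 8 for epithelium. For neural crest and glia 5 of 8 were higher and 1 lower, and for mesenchyme 4 of 12 were higher and 3 lower. The part of these markers in the members' rises was not tested. In G0 Slit2 fell by 1.89 (SE 0.13, adjusted p 4.55e-06), Epha1 by 1.77 (SE 0.23, adjusted p 0.000184), Sema3d by 1.31 (SE 0.25, adjusted p 0.00847), Slit3 by 1.28 (SE 0.12, adjusted p 3.05e-05) and Epha10 by 0.86 (SE 0.22, adjusted p 0.0147). Of these, the calls of Sema3d without 8 and of Epha10 without 5 were lost. Rises in G0 were also called for Epha3 at 1.49 (SE 0.29, adjusted p 0.0130), Sema3a at 1.28 (SE 0.15, adjusted p 0.000103) and Efnb2 at 0.41 (SE 0.12, adjusted p 0.0186), those of Epha3 and Efnb2 being lost without 5 or 8, and that of Efnb2 also without WT1. Robo3 at -1.30 (SE 0.49, adjusted p 0.135) and Dcc at -0.49 (SE 0.22, adjusted p 0.114) were not called in G0, nor were Nrp1, Ephb2 and Ntn1, at -0.23 to -0.08 (adjusted p 0.361 to 0.688). In G0 the summed neuron markers averaged 5105 CPM at E13.5 and 8548 CPM at E10.5, and mesenchyme markers averaged 5957 CPM at E13.5 and 1003 CPM at E10.5. The part of this shift in the G0 changes was not tested.

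**Figure D5:**
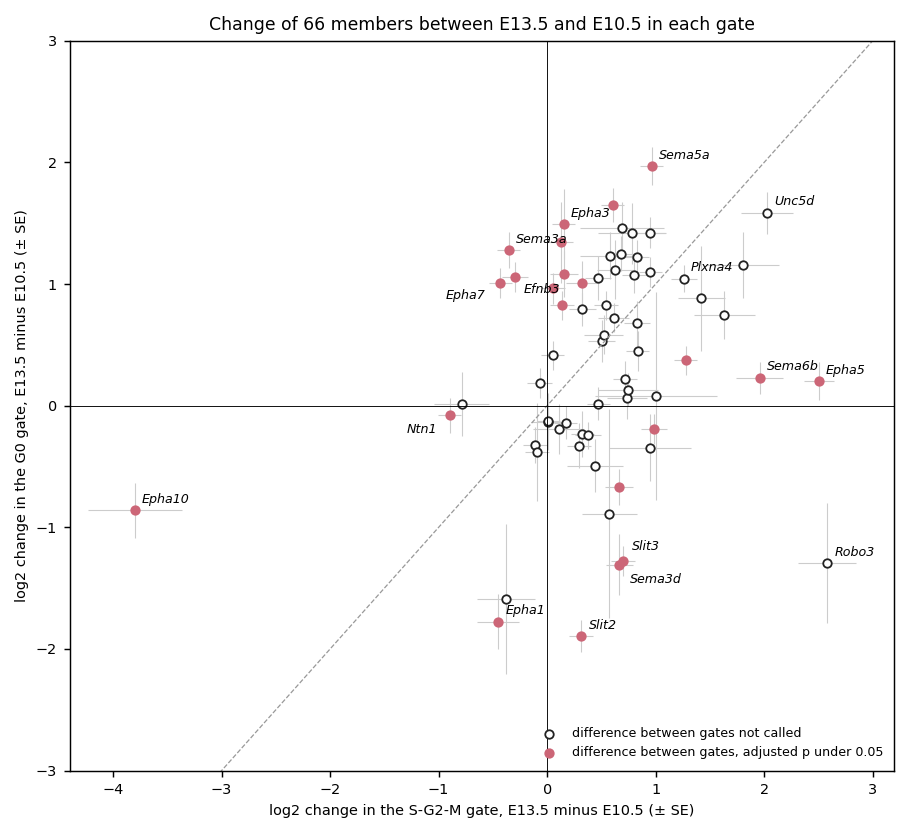
The log2 change of the 66 members, E13.5 minus E10.5, in the S-G2-M gate (x axis) and in the G0 gate (y axis), with standard errors; the dashed line marks equal change and filled points are members whose changes differ between the gates at an adjusted p under 0.05. Slit2, Slit3 and Sema3d lie to the lower right, Sema3a, Epha7 and Efnb3 to the upper left, and Epha5 and Sema6b rose in S-G2-M with a G0 change near 0.

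The difference between the gates itself changed with day for 22 members. The signed log2 difference of S-G2-M minus G0 moved up from E10.5 to E13.5 for 9 and down for 13, against 4.24% and 4.42% of all genes. Up or down does not give the size of the gap between gates. By gate means, Slit2 moved up from -2.59 to -0.37 and Epha10 moved down from -2.64 to -5.49. Slit2 and Slit3 lost most of their excess in G0. Slit2 averaged 196 CPM in S-G2-M and 254 CPM in G0 at E13.5, against 157 CPM in S-G2-M and 943 CPM in G0 at E10.5, a difference of differences of 2.22 (SE 0.22, adjusted p 8.10e-06). Slit3 averaged 96.2 CPM in S-G2-M and 85.0 CPM in G0 at E13.5, against 59.0 CPM in S-G2-M and 206 CPM in G0 at E10.5, at 1.99 (SE 0.18, adjusted p 2.71e-06). Sema3d, a class 3 semaphorin of neural crest and heart, behaved likewise at 1.98 (SE 0.31, adjusted p 0.000585). Epha5 at 2.31 (SE 0.46, adjusted p 0.00562) and Sema6b at 1.74 (SE 0.32, adjusted p 0.00187) differed by their rise in S-G2-M.

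On the other side, Sema3a was at 107 CPM in S-G2-M and 85.9 CPM in G0 at E13.5, against 136 CPM in S-G2-M and 35.3 CPM in G0 at E10.5, at -1.63 (SE 0.19, adjusted p 3.58e-05). Epha7 was at 118 CPM in S-G2-M and 178 CPM in G0 at E13.5, against 158 CPM in S-G2-M and 88.4 CPM in G0 at E10.5, at -1.43 (SE 0.14, adjusted p 7.61e-06). Efnb3 gave -1.34 (SE 0.20, adjusted p 0.000266) and Epha3 -1.33 (SE 0.35, adjusted p 0.0257). Epha10 gave -2.92 (SE 0.60, adjusted p 0.00443), with 3 and 7 reads in the S-G2-M libraries of E13.5. Ntn1 gave -0.81 (SE 0.20, adjusted p 0.0151). In the same contrast 8 of 12 mesenchyme markers were lower and 8 of 12 neuron markers higher, and their part was not tested. With the preparation as a block 35 members were called, among them Robo3 at 3.81 (adjusted p 0.0115), Dcc at 0.96 (adjusted p 0.0378) and Nrp1 at 0.54 (adjusted p 0.0225), which without it gave 3.88 (adjusted p 0.0553), 0.94 (adjusted p 0.496) and 0.56 (adjusted p 0.278). Efnb2, Plxna4 and Ephb2 were not called without it, at -0.35 to 0.32 (adjusted p 0.157 to 0.552). The count of 22 changed in the fits without WT1, WT2, 5 or 8, and so did the count over all genes. Each of those fits leaves a single library per gate at E10.5 or E13.5. Slit2, Slit3, Sema3a and Epha7 were called in each of those fits, and Epha5, Sema3d, Sema6b, Efnb3, Epha3, Epha10 and Ntn1 were called neither without 5 nor without 8.

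Partners and effectors of these receptors, 51 genes that include co-receptors, adhesion molecules and cytoskeletal regulators, were listed beside the members. In S-G2-M against G0 35 of the 51 were lower and 7 higher, with a median log2 change of -1.13. Over all genes 26.6% were lower and 27.5% higher. The list is not separate from the neuron markers, since Stmn2 stands in both. Among those that fell were adhesion molecules of axons. Cntn2, which marks young commissural axons, averaged 15.4 CPM in S-G2-M and 1542 CPM in G0, and L1cam, which holds axons in bundles, 10.8 CPM in S-G2-M and 203 CPM in G0. Neo1, a receptor for netrins and repulsive guidance molecules, averaged 244 CPM in S-G2-M and 224 CPM in G0 and was not called (adjusted p 0.261). Flrt3, which binds Unc5 receptors and Robo1, averaged 88.6 CPM in S-G2-M and 50.1 CPM in G0, a log2 change of 0.85 (SE 0.17, adjusted p 0.000131). In unsorted cells 19 of the 51 were higher at E13.5 than at E10.5 and 1 was lower, Enah, an actin regulator, at -0.50 (SE 0.16, adjusted p 0.0338). Over all genes 23.2% were higher and 23.7% lower in that comparison.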

How the data were processed

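RNA was sequenced from sorted and unsorted cells of FUCCI mouse embryos, from ribosome-depleted total RNA with standard Illumina libraries, per the labels' protocols. As deposited, the values were raw counts in 130 columns for 52550 genes. STAR 2.5.3, HTSeq 0.8.0 and the mm10 build are named in the submitters' processing notes. Neither annotation nor strand setting is given in the sources used here. Columns of 1 preparation and fraction that differ in lane were summed to 25 libraries: their index of dispersion was 1.09 to 1.23, against 5.89 to 117.5 between preparations.

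Genes were tested in R 4.3.3 (edgeR 4.0.16, limma 3.58.1): TMM scaling, filterByExpr (minimum count 10, minimum total 15), the robust quasi-likelihood F test and Benjamini-Hochberg adjustment over all genes tested, at 0.05. Gate comparisons came from 1 additive model of gate and day on 25 libraries, day comparisons from the 5 libraries of a fraction, and the difference of differences from a mean for each gate and day. Each SE is the size of the log2 change over the root of its F value. CPM are scaled to TMM-adjusted totals. The fits were tested on simulated data with 200 genes changed.

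The title prefix gives the preparations. Over 11173 genes and 10 pairs of fractions, the differences of WT1 and WT2 correlated at 0.12 to 0.741 and those of 5 and 8 at 0.308 to 0.661. Fractions of 1 preparation thus deviated together. The main fits hold no term for preparation and took the libraries as independent. A fit with the preparation as a block was an alternative. Other alternatives were RLE size factors, no filter, DESeq2 1.42.0, leaving out Gm26917 and Gm42418, leaving out each preparation, and the WT-titled or the 5 and 8 preparations alone.

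Members were the genes of the named families that matched the symbols searched and had a mean of at least 1 CPM. Of the Robo receptors only Robo1, Robo2 and Robo3 were searched. Statistics are given, in each comparison, for the 5 members past the threshold with the highest log2 change, the 5 with the lowest, and for Robo3, Dcc, Slit2, Ntn1, Sema3a, Nrp1, Plxna4, Efnb2, Epha3 and Ephb2, some of these fixed genes by their range where not called. Members and lists were chosen with earlier results of these data known. Exon lengths and overlaps came from GENCODE M21 and promoters from RefSeq (GRCm38.p6).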

Additional observations from a re-analysis of the deposited data

Results flagged for a closer look

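For 11 of the members with full statistics the S-G2-M minus G0 difference changed between E13.5 and E10.5 by a test of that change itself, on the log2 scale with edgeR's quasi-likelihood test. The change was positive for Epha5 (2.31), Slit2 (2.22), Slit3 (1.99), Sema3d (1.98) and Sema6b (1.74). It was negative for Epha10 (-2.92), Sema3a (-1.63), Epha7 (-1.43), Efnb3 (-1.34), Epha3 (-1.33) and Ntn1 (-0.81). Each day had 2 preparations, and with 1 of the E13.5 preparations left out 4 members were called in all. At E11.5, with 1 preparation, Slit2 was at 157 CPM in S-G2-M and 949 CPM in G0, and Sema3a at 138 CPM in S-G2-M and 46.4 CPM in G0. No group of preparations at a day held 4 libraries of a gate, so single libraries were not tested as outlying.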

How the results depend on the processing

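The counts of members called kept within 1.5 times of their main value in every alternative for G1 against G0, S-G2-M against G0, and the day comparisons in the G0 and S-G2-M gates. For G1-S against G1 the 12 calls became 26 with no filter, 21 with DESeq2, 19 without Gm26917 and Gm42418, and 42 within 5 and 8. Over all genes the 4444 calls became 4683, 5275, 4344 and 8476 in the same order. For S-G2-M against G1-S the 18 calls became 31 within 5 and 8, of which 48.4% were higher, against 22.2% in all preparations. With a replicate block the difference of differences gave 35 calls in place of 22, and 3380 in place of 2036 over all genes. Beyond Robo3, Dcc and Nrp1 in that contrast the block changed no other call of a gene with full statistics. Counts over all genes also moved when a preparation was left out. With a preparation left out the counts ran from 40 to 42 for G1 against G0, 7 to 13 for G1-S against G1, 10 to 14 for S-G2-M against G1-S, 48 to 51 for S-G2-M against G0, 22 to 59 for unsorted cells by day, 27 to 48 for G0 by day, 35 to 49 for S-G2-M by day and 4 to 45 for the difference of differences. Of the log2 changes with full statistics, 1302 kept their side of the threshold, 57 newly passed and 79 no longer passed. The 1302 include changes of sign with neither value past the threshold, as for Robo3 in G1-S against G1 within 5 and 8 (0.83). The other 7 reversed, with the main or the alternative value past the threshold. Within 5 and 8 those were Slit2 in G1 against G0 (0.071), Plxna4 in G1-S against G1 (-0.24), Ephb2 in S-G2-M against G1-S (0.29), and Efnb2 (-0.23) and Epha3 (-0.25) in S-G2-M against G0. In unsorted cells by day they were Dcc without WT2 (-0.41, against 1.07 without WT1) and Robo3 without WT1 (0.73, against -1.62 without WT2). The cause was not tested. At a mean of at least 5 CPM 64 members were kept in place of 66. Depth limits Epha10 most, with 3 and 7 reads in 2 libraries, and with 2 preparations at E10.5 and 2 at E13.5 the day comparisons rest on few values.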
